A study of Mus musculus with 2 samples.

Results

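The 10 genes for the constant regions of mouse immunoglobulin that were listed by symbol in both deposited gene lists were followed here: Ighm, Ighd, Igha, Ighg1, Ighg2b, Ighg2c, Ighg3, Igkc, Iglc1 and Iglc2. They were 10 of 22620 genes. Each was counted in single cells of EO771-HEVM3 primary tumours and of the paired lymph nodes. The tumour cells derive from EO771, a breast cancer line of the mouse. Their HEVM3 variant came from repeated passage in mice for spread by way of high endothelial venules, where lymphocytes leave the blood for the lymph node. The hosts were C57BL/6J mice without a further allele or treatment in the labels, and 6 mice were pooled in each library, so the genes could not be followed by animal. There was 1 library per tissue, so no test was run, and the 95% intervals given in brackets cover counting error only (exact Poisson for levels, Clopper-Pearson for shares).

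An antibody, or a B cell receptor, pairs a heavy chain with a light chain, and the constant region of the heavy chain sets its isotype. A naive B cell makes IgM and IgD from 1 long transcript that is spliced to either Ighm or Ighd. Class switching joins the same variable region to a constant gene farther downstream. Plasma cells then secrete the chosen isotype. The light chain is kappa (Igkc) or lambda (the Iglc genes), and a B cell normally keeps 1 kind.

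The 7 heavy chain members lie in a row on the minus strand of chromosome 12 (GRCm38, annotation GENCODE M21), and each identifier in the files was the one in that annotation. In the direction of transcription the order is Ighm (chr12:113418558-113422730), Ighd (chr12:113406604-113416324), Ighg3 (chr12:113356224-113361232), Ighg1 (chr12:113325240-113330523), Ighg2b (chr12:113302965-113307933), Ighg2c (chr12:113285325-113288932) and Igha (chr12:113254830-113260236). Igkc is at chr6:70726435-70726966 on the plus strand. Iglc1 (chr16:19061618-19062071) and Iglc2 (chr16:19198396-19200351) are on the minus strand of chromosome 16.

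The 4 IgG genes encode subclasses that differ most plainly in the hinge, the flexible stretch whose cysteines tie the heavy chains together. Their hinge exons (exon 2 in each case, minus strand) are printed because these subclasses divide the switched cells described here. The exons lie at chr12:113329844-113329882 (Ighg1), chr12:113307261-113307326 (Ighg2b), chr12:113288263-113288325 (Ighg2c) and chr12:113360529-113360576 (Ighg3), and capitals mark the in-frame cysteine codons.
Ighg1: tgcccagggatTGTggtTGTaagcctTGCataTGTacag
Ighg2b: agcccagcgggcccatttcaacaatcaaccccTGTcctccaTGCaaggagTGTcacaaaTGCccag
Ighg2c: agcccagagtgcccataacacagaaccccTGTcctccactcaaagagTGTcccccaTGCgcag
Ighg3: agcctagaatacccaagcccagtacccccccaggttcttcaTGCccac
The hinge exon of Ighg1 is the shortest, with 39 bases and 4 cysteine codons, and that of Ighg2b has 66 bases and 4. Ighg2c has 63 bases and 3 such codons, and Ighg3 has 48 bases and 1.

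Near-identical copies can exchange reads, so the coding sequences were compared. Ighg2b and Ighg2c were identical at 85.9% of aligned coding bases, and the other compared pairs of IgG genes at 74.4% to 76.6%. No stretch of 90 bases was shared between the transcripts of any of the members and Ighe, Iglc3 and Iglc4, which are not members. The last 60 coding bases of the secreted forms of the closest heavy chain pair (chr12:113306392-113306451 for Ighg2b, chr12:113287392-113287451 for Ighg2c) show where a read can tell them apart, with capitals at the 14 positions that differ.
Ighg2b: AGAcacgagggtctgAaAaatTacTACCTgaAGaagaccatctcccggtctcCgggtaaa
Ighg2c: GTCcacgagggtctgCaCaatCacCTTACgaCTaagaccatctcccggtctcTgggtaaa
For the lambda genes the same stretch (chr16:19061755-19061814 for Iglc1, chr16:19198539-19198598 for Iglc2, chr16:19065368-19065427 for Iglc3) has 13 positions at which not all 3 were the same.
Iglc1: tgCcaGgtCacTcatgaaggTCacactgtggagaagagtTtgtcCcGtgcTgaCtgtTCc
Iglc2: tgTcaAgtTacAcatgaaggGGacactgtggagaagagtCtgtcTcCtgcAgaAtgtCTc
Iglc3: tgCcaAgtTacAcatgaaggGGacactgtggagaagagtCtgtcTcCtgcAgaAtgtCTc
Iglc2 and Iglc3 were identical at 96.2% of aligned coding bases, so counts of this pair are less certain than those of Iglc1, which shared 73.8% with Iglc2.

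The deposited tumour library held 12427 cells with a median of 9161 unique molecular identifiers (UMIs, counted molecules), and the lymph node library 11617 cells with a median of 2630. Members took 1547 UMIs in the tumour library and 630258 in the lymph node library, or 8.93 and 5157 per 1000000 UMIs (CPM). After the cell filters 8756 tumour cells and 9689 lymph node cells were kept, and 344 and 71 of them stayed without a class name. Immunoglobulin genes were left out of the genes used for clustering, so they did not set the classes directly. They still counted in the totals that scaled each cell and in the doublet scores. The libraries shared 47 cell barcodes, whose lymph node cells held 986 member UMIs and whose tumour cells held 2.

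Of the kept lymph node cells, 4718 were classed as B lineage, with 4631 in B cell-like clusters and 87 in a plasma cell-like cluster. Ighm stood at 2078 CPM (2050 to 2106) in the B cells and at 1173 CPM (1111 to 1239) in the plasma cells. Ighd was at 691 CPM in the B cells and 18.9 CPM in the plasma cells. The switched isotypes ran the other way. Ighg2b was at 336 CPM in the B cells and 37361 CPM in the plasma cells, and Igha was at 5.43 and 3056 CPM. Single cells carried part of these levels. A cell classed with the B cells, but placed in the secretory subcluster 4 below, held 2049 of the 3340 Ighg2b UMIs of that class. It brought the level from 130 to 336 CPM, and a plasma cell brought Igha from 1429 to 3056 CPM. In subclusters 0, 1 and 2 below, with most of the B cells, Ighg2b was at 12.7 to 15.3 CPM. Igkc, the constant region of all kappa chains, was at 10609 CPM in the B cells and 268684 CPM in the plasma cells, so more than 1 in 4 of the molecules counted in the latter came from this gene. All immunoglobulin genes took 36.4% of the UMIs of the plasma cells and 1.56% of those of the B cells. The CPM of Ighm and Ighd are lowered more by this in the plasma cells.

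**Figure D1:**
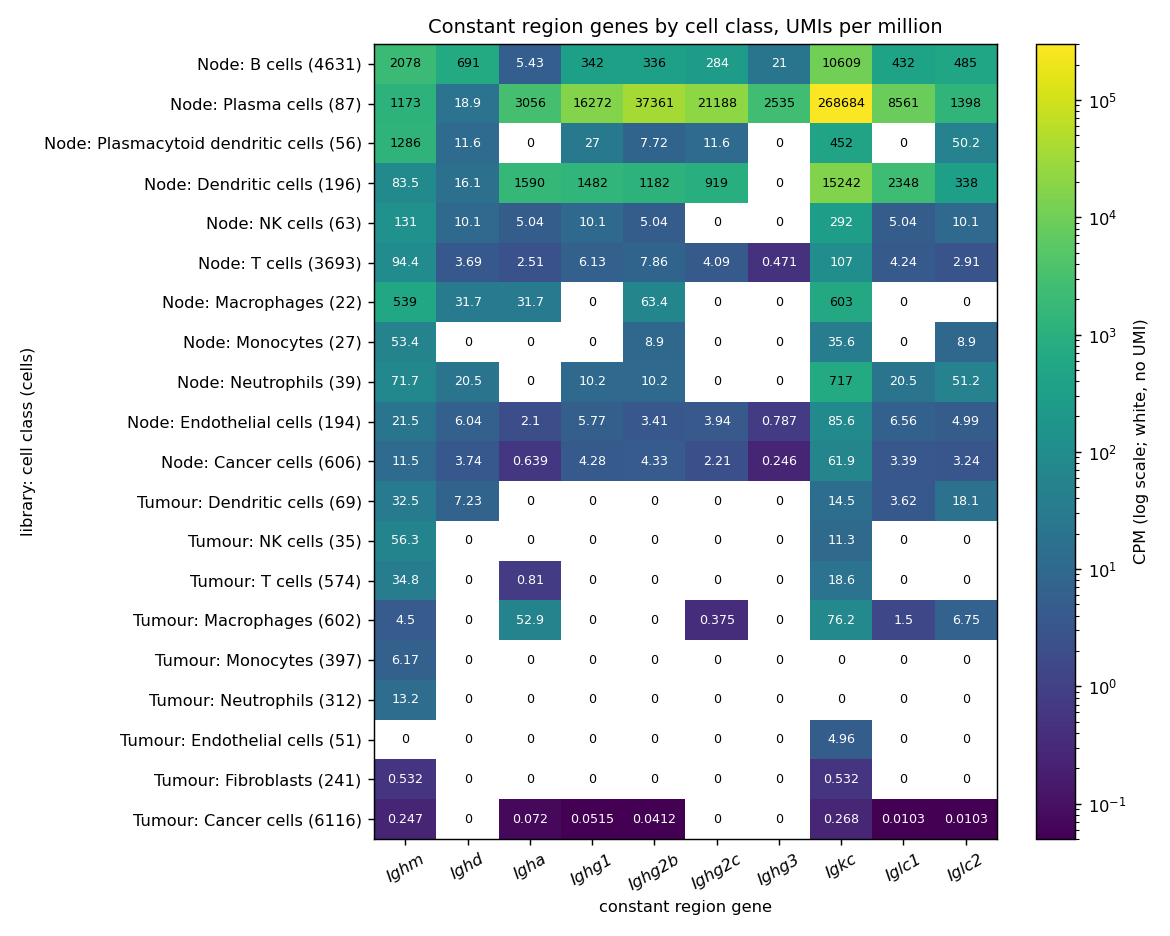
Level of each constant region gene (columns) in each class of at least 20 cells (lines, lymph node above and tumour below), as CPM on a log colour scale, with white for no UMI. The plasma cells stand highest for all members but Ighm and Ighd, and the dendritic cell class of the node holds Igkc at 15242 CPM, most of it in 6 droplets.

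The isotype of each B lineage cell was called from its own counts. A call needed at least 3 UMIs of the leading heavy chain and at least 10 times the level of that chain in the T cells of the library. Of the 4718 cells, 3586 were called IgM/IgD (76.0%, 74.8 to 77.2), 148 IgG (3.14%, 2.66 to 3.67) and 4 IgA (0.0848%, 0.0231 to 0.217), while 980 were left uncalled. Among the IgG cells 60 were called Ighg1, 53 Ighg2b, 28 Ighg2c and 7 Ighg3. With each cell thinned to 1000 UMIs (69 shallower cells left out) the IgM/IgD share was 49.6% and the IgG share 2.34%, since 48.0% of the cells then had too few heavy chain UMIs for a call. A 3′ library counts the end of the transcript, so a rearranged chain could not be told apart from a germline transcript of the same constant gene, nor a membrane from a secreted form with certainty.

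Within the IgM/IgD cells, Ighm alone passed the limits in 2158 (60.2%), Ighd alone in 219 (6.11%), both in 713 (19.9%) and only their sum in 496 (13.8%). The median such cell held 4 Ighm UMIs and 1 Ighd UMI. The share with both was set by the limits at these low counts: it was 38.2% with a minimum of 2 UMIs and 5.87% with a minimum of 5. At least 1 Ighd UMI was found in 67.8% of all B lineage cells (48.7% after thinning), against 1.03% (0.351%) of T cells at a median depth of 2991 UMIs, above the 1813 of the B lineage.

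B lineage cells were clustered again without immunoglobulin genes, which gave 8 subclusters numbered 0 to 7. Nearly all switched cells fell in 2 of them. Subcluster 4 (102 cells, led by Slpi, Jchain and Derl3, with the secretory regulator Xbp1 among its leading genes) held 95 IgG cells (93.1%, 86.4 to 97.2), 3 IgA cells and 4 IgM/IgD cells, with none uncalled. Subcluster 5 (87 cells, led by Rgs13, with Mef2b, both genes of germinal centre B cells) held 49 IgG cells (56.3%, 45.3 to 66.9), 17 IgM/IgD cells and 21 uncalled cells. The other 6 subclusters held 4 IgG cells and 1 IgA cell among 4529 cells. Subcluster 4 took in the 87 cells of the plasma cell-like cluster and 15 cells classed above as B cells. It held 98.9% of the Ighg2b UMIs of the B lineage, and Ighg2b was at 12.7 to 15.3 CPM in subclusters 0, 1 and 2.

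**Figure D2:**
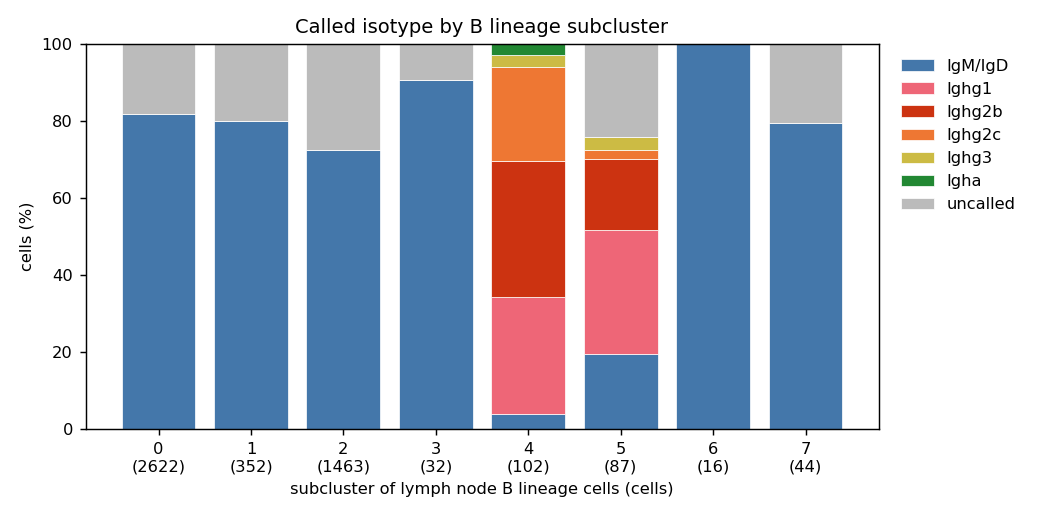
Share of cells by called isotype (stacked colours, percent of cells) in each of the 8 subclusters of lymph node B lineage cells, with the number of cells under each bar. IgG takes 93.1% of subcluster 4 and 56.3% of subcluster 5, and the other 6 bars are IgM/IgD and uncalled cells apart from 4 IgG cells and 1 IgA cell.

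The depth of the subclusters differed, and it bore on these shares. Median UMIs were 12124.5 per cell in subcluster 4, 6226 in subcluster 5 and 1536 to 2032 in the others. Thinned to 1000 UMIs, subcluster 4 still had 95 IgG calls, whereas subcluster 5 had 13 (14.9%, 8.20 to 24.2) with 64 of 87 cells uncalled. In subclusters 0 and 2, the largest, thinning left 1 and 0 IgG cells.

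The subclass calls of the pair of switched subclusters were as follows. In subcluster 4, 31 cells were Ighg1, 36 Ighg2b, 25 Ighg2c and 3 Ighg3. In subcluster 5, 28 were Ighg1, 16 Ighg2b, 2 Ighg2c and 3 Ighg3. Ighg2c, the subclass that C57BL/6 mice carry in place of Ighg2a, thus made up 25 of 95 IgG cells in the former and 2 of 49 in the latter. Thinned to 1000 UMIs, subcluster 5 had 6 Ighg1, 6 Ighg2b, 0 Ighg2c and 1 Ighg3 cells. The number of cells of each isotype in subcluster 4 stayed the same. The mix of subcluster 5 therefore rests on few cells at equal depth. Whether this difference would recur in another library was not tested, and the mice behind each cell are unknown.

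Heavy chain UMIs per cell differed widely between these subclusters within the same IgG subclass. Own heavy chain UMIs of Ighg1 cells ran from 35 to 1904 in subcluster 4, with a median of 634, and from 3 to 29 in subcluster 5, with a median of 8.5. For Ighg2b the ranges were 56 to 2869 (median 1281.5) and 3 to 109 (median 13.5). The 25 Ighg2c cells of subcluster 4 held 162 to 3748 UMIs (median 898), while the pair of Ighg2c cells in subcluster 5 held 7 and 8. Ranges of Ighg1 and Ighg2c did not overlap between these subclusters, and those of Ighg2b overlapped at their ends. Ighg3 cells held 455, 628 and 1727 UMIs in subcluster 4 and 16, 17 and 144 in subcluster 5.

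Few cells held IgM transcripts in such amounts. The 4 IgM/IgD cells of subcluster 4 held 355 to 632 Ighm UMIs and 0 Ighd UMIs. The 17 in subcluster 5 held 10 to 68 UMIs of both genes together, with a median of 18, and the 3565 elsewhere 3 to 57, with a median of 6. Ighm stood at 1675 CPM in subcluster 4 as a whole, and these 4 cells held 1891 of its UMIs. The 3 IgA cells of subcluster 4 held 352, 1204 and 1829 Igha UMIs, and another IgA cell, in subcluster 0, held 7.

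Jchain, whose product joins IgA dimers and IgM pentamers, was counted in cells of every isotype in subcluster 4. Its median was 34 UMIs in the 4 IgM/IgD cells and 647 in the 3 IgA cells. In the IgG cells the medians were 147 (Ighg1), 118 (Ighg2b), 209 (Ighg2c) and 113 (Ighg3). Jchain transcripts were therefore not limited to the isotypes whose protein carries the J chain.

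Subcluster 4 held most of the antibody transcripts of the B lineage. Its 102 cells carried 98.0% of the B lineage UMIs of Ighg1, 98.9% of Ighg2b, 99.7% of Ighg2c, 93.2% of Ighg3 and 98.4% of Igha. They carried 82.5% of the Igkc UMIs and 81.8% of the Iglc1 UMIs. Iglc2 differed from Iglc1, with 28.7% in these cells, and Ighm and Ighd had 9.84% and 0.450% there. All immunoglobulin genes together made up 35.0% of the UMIs of the subcluster, with a median cell at 37.7% and the highest at 75.4%. Among all kept lymph node cells, the subcluster held 3396 of 5583 Igha UMIs and 11301 of 17040 Iglc1 UMIs.

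Ighm and Ighd varied among the unswitched subclusters. Subcluster 6 (16 cells, with Rag1, the recombinase of developing lymphocytes, Myb and Sox4 among its leading genes) had the highest Ighm, at 6475 CPM, and only 105 CPM of Ighd. All of its 16 cells were called IgM/IgD. Subcluster 3 (32 cells, led by interferon-induced genes) had 2716 CPM of Ighm and 1187 CPM of Ighd, and subcluster 0, the largest with 2622 cells, had 2302 and 873 CPM. Subcluster 2 had 1897 and 572 CPM. Ighd was lowest in the switched subclusters, at 24.0 and 30.7 CPM.

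A B cell normally expresses IgM with IgD or 1 switched isotype, and most cells were called so. A further isotype also passed the limits in 51 cells, of which 36 were in subcluster 4 and 2 were ties left uncalled. After thinning, 8 such cells were left. The further isotype had over 10% of the leading one's UMIs in 16 cells and over 50% in 6. In 1 cell of subcluster 4, with 20913 UMIs, 1826 Ighg2b UMIs stood beside 1602 Ighg2c UMIs. This cell was not called a doublet, and whether it was 1 cell or more was not tested.

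**Figure D3:**
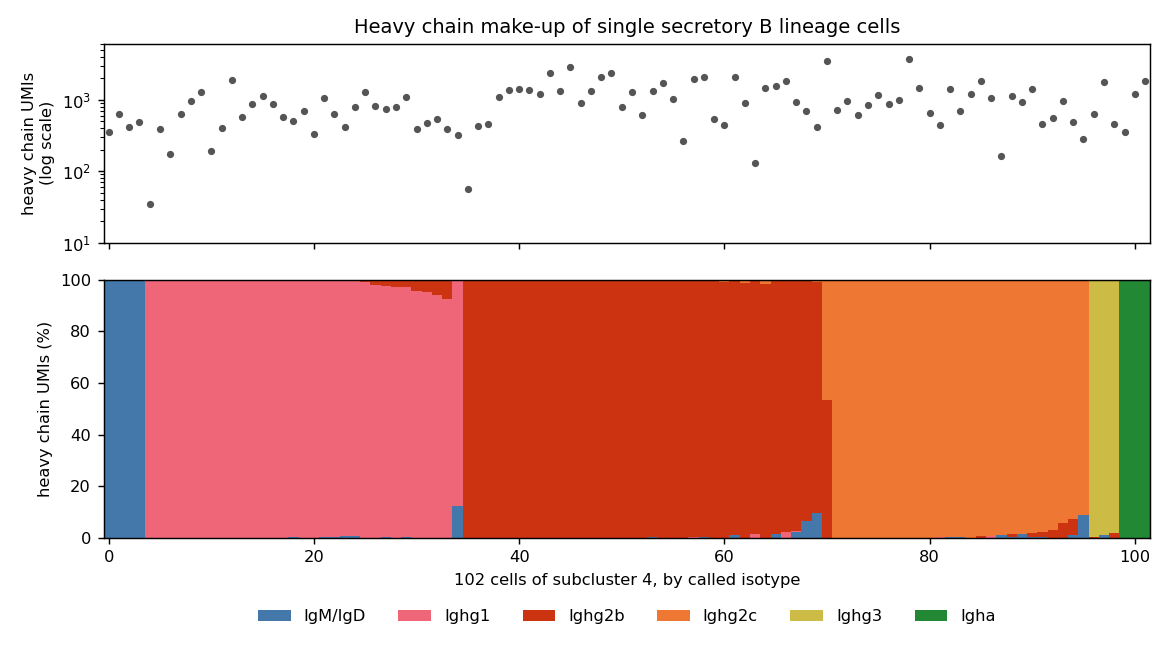
Each position on the x axis is 1 of the 102 cells of subcluster 4, ordered by called isotype, with its heavy chain UMIs above (log scale) and their make-up below (percent of heavy chain UMIs). Most cells are of a single colour, a run of Ighg1 cells carries a minor share of Ighg2b, and 1 cell is split between Ighg2b and Ighg2c.

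The minor heavy chains of subcluster 4 were not spread evenly. In the 31 Ighg1 cells, Ighg2b, the next gene downstream, had 212 UMIs in 11 cells, or 1.01% of the Ighg1 UMIs. Ighg2c had 1 UMI and Ighg3 had 0 in the same cells. The converse was smaller, with 60 Ighg1 UMIs in the 36 Ighg2b cells, or 0.136% of their own chain, and 0.0409% without the cell that held 42 of them. In the 25 Ighg2c cells, Ighg2b had 158 UMIs in 8 cells (0.641%). Ighg2c in Ighg2b cells was 3.78% of the own chain, but 0.132% without the cell split between them. Ighm and Ighd together came to 0.291%, 0.373% and 0.248% of the own chain in the Ighg1, Ighg2b and Ighg2c cells. The 3 IgA cells held 0 UMIs of every other heavy chain member.

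Light chains were called from Igkc and from the sum of Iglc1 and Iglc2, without Iglc3. By this 3540 B lineage cells passed the limits for kappa only, 172 for lambda only (3.65%, 3.13 to 4.22), 739 for both (15.7%) and 267 for neither. With Iglc3 added to lambda the lambda-only share was 3.96% and the share with both 20.4%. Of the cells with a single kind, 172 of 3712 were lambda (4.63%, 3.98 to 5.36). The number with both depended on depth, and it was 86 of 102 cells in subcluster 4 but 28 after thinning. A share of the light chain UMIs is less bound to depth, and by it lambda led (over 50%) in 4 of 102 cells in subcluster 4 (3.92%, 1.08 to 9.74), 4 of 86 in subcluster 5 (4.65%) and 214 of 4311 elsewhere (4.96%, 4.33 to 5.66). These intervals overlap, so no difference in lambda use between the subclusters was detectable at these numbers.

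**Figure D4:**
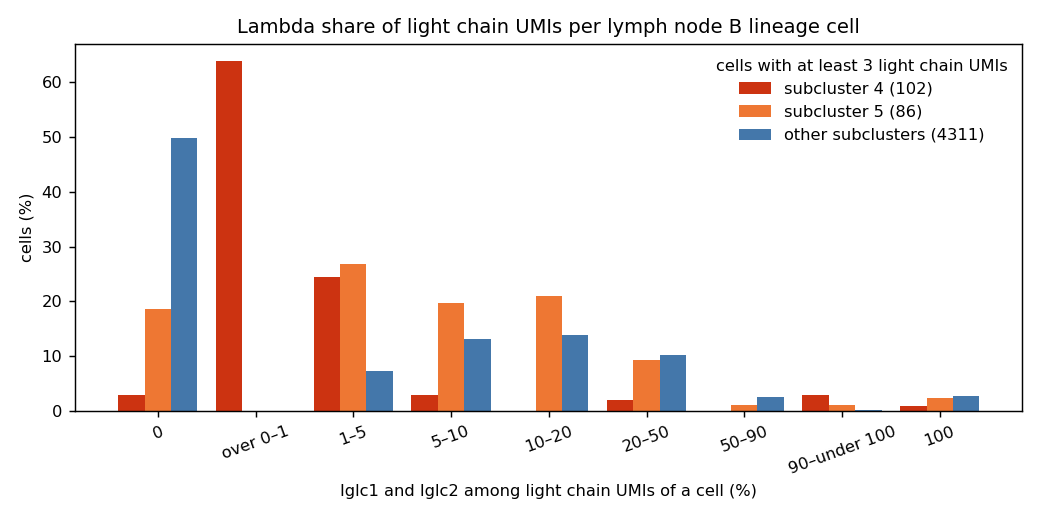
Share of Iglc1 and Iglc2 among the light chain UMIs of a cell (x axis, percent in classes) against the percent of cells with at least 3 light chain UMIs, for subcluster 4, subcluster 5 and the other subclusters. Cells of subcluster 4 sit at the ends, with 1.96% between 10% and 90% lambda, against 31.4% in subcluster 5 and 26.8% elsewhere.

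Cells with a mixture of both chains were common outside subcluster 4, though kappa led in most of them. Lambda made up 10% to 90% of light chain UMIs in 2 of 102 cells of subcluster 4 (1.96%), 27 of 86 in subcluster 5 (31.4%) and 1156 of 4311 elsewhere (26.8%). Of the last, 598 had 10% to 20% lambda and 440 had 20% to 50%. Median Igkc UMIs per cell were 2863, 38.5 and 13 in these sets, so a few lambda UMIs weigh more in the latter. The part of free RNA in these mixed cells was not tested.

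The lambda genes within kappa cells differed by subcluster. In kappa cells of the other subclusters Iglc2 was found in 1769 of 4097 cells (43.2%) and Iglc1 in 448 (10.9%). In subcluster 5 the order was turned, with Iglc2 in 40.2% and Iglc1 in 72.0% of 82 kappa cells. Iglc1 made up 18.0% of the Iglc1 and Iglc2 UMIs of kappa cells in the other subclusters, 79.7% in subcluster 5 and 72.7% in subcluster 4. In lambda cells it made up 61.2%, 90.5% and 89.9%. By pooled UMIs Iglc1 thus led in the lambda cells of all 3 sets, though of the 214 such cells outside the switched subclusters 122 held more Iglc1 and 82 more Iglc2, while Iglc2 led in kappa cells outside the switched subclusters.

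The 4 lambda cells of subcluster 4 were an Ighg2c, an Ighg1, an Ighg2b and an IgM/IgD cell. They held 4476, 2620, 883 and 1165 Iglc1 UMIs, in that order. Iglc2 had 0, 467, 550 and 8 UMIs in them, and Igkc had 7, 0, 1 and 58. All 4 were therefore led by Iglc1.

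Genes outside the immunoglobulin loci were compared between the 148 IgG cells and the 3586 IgM/IgD cells, as pooled CPM with all immunoglobulin UMIs left out of the total. Those UMIs made up 24.8% of the IgG cells' counts and 1.32% of the IgM/IgD cells' counts, and the median depths were 10981 and 1837 UMIs. The IgG set was 95 cells of subcluster 4, 49 of subcluster 5 and 4 others. Isotype and secretory state were therefore bound together in this comparison and cannot be told apart. Of 7655 genes with enough counts, 1033 (13.5%) were at least 2-fold higher and 1351 (17.6%) at least 2-fold lower in IgG cells, and the median log2 ratio was −0.17. These counts are of sizes and not of a test.

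Secretory genes stood higher in IgG cells in 10 of 11 measured members with enough counts, with a median log2 ratio of 4.06. Jchain was at 11270 CPM against 30.9 (log2 ratio 8.51, 8.32 to 8.71). Of the 227 Jchain UMIs of the IgM/IgD cells, 159 lay in the 4 such cells of subcluster 4. Xbp1, the transcription factor of the secretory programme, was at 930 against 39.8 CPM (4.54), and Derl3, of protein disposal at the endoplasmic reticulum, had a log2 ratio of 7.24. Tnfrsf17, the receptor BCMA of plasma cells, had 104 UMIs in IgG cells and 0 in IgM/IgD cells, which makes it at least 197-fold higher when the 0 is set to a limit of 3 counts over the group. The exception was Irf4, at 96.5 against 134 CPM (−0.47). These ratios pool the 95 IgG cells of subcluster 4 with the 49 of subcluster 5, which differed. In those of subcluster 5 Tnfrsf17 had 0 UMIs, and Hsp90b1 was at 596 CPM against 527 CPM in IgM/IgD cells outside both subclusters. Jchain (655 against 5.57 CPM), Derl3 (29.4 against 0.557), Xbp1 (107 against 34.7), Sec11c (327 against 214) and Creld2 (44.1, with an interval of 27.3 to 67.4, against one of 18.7 to 25.7) were higher in the former. Sdc1 had 1 UMI in the former (an interval of 0.0531 to 11.7 CPM) and was at 17.4 CPM (14.5 to 20.7) in the latter, and Ell2 at 18.9 CPM (8.64 to 35.9) and 69.4 CPM (63.4 to 75.7), so both were lower there.

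Partners of the B cell receptor stood at least 2-fold lower in 6 of 9 and higher in 0, with a median of −1.50. Cd79a, which signals with the membrane form of all isotypes, was at 1127 CPM in IgG cells and 3188 CPM in IgM/IgD cells (−1.50, −1.58 to −1.42). The kinase gene Lyn was lower by more (−2.39), and the adaptor gene Blnk was not lower, at 236 against 205 CPM. Naive follicular genes stood at least 2-fold lower in 8 of 8, with a median of −3.11. Among them were the homing receptor Ccr7 (−3.43) and Fcer2a, the low-affinity IgE receptor CD23, at 24.7 against 200 CPM (−3.00). The sizes differed between the IgG cells of the 2 switched subclusters. Bach2, a repressor of plasma cell fate, was at 16.2 CPM in those of subcluster 4 and 166 CPM (131 to 207) in those of subcluster 5, against 207 CPM (196 to 217) in IgM/IgD cells outside both. Among the receptor partners Cd22 was at 12.5, 79.7 and 145 CPM and Syk at 105, 185 and 280 CPM in the same groups, so neither was 2-fold lower in subcluster 5.

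Germinal centre and switching genes were higher in 4 of 7 with enough counts, with a median of 3.58. Nuggc (6.43), Mef2b (5.04), Rgs13 (4.16) and Fas (3.58) were the 4. Bcl6 (−0.57), Apex1 (−0.32) and Ung (0.13) were not 2-fold apart. The IgG cells of the 2 switched subclusters differed in these genes. Rgs13 was at 222 CPM in the IgG cells of subcluster 5, 2.50 CPM in those of subcluster 4 and 2.65 CPM in IgM/IgD cells outside both. Mef2b was at 149, 8.75 and 0.557 CPM in the same groups, and Fas at 67.2, 23.7 and 2.65 CPM. Nuggc was high in both sets of IgG cells, at 92.3 and 48.7 against 0.557 CPM, with 1 UMI in the IgM/IgD cells of subcluster 5. Bcl6 was at 25.2 CPM (13.0 to 44.0) in the IgG cells of subcluster 5. In IgM/IgD cells outside both subclusters it was at 17.5 CPM (14.6 to 20.9), an overlapping interval.

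Receptors that carry switching signals were lower in 4 of 8 and higher in 1, with a median of −1.02. Il4ra, a chain of the interleukin 4 receptor, which directs switching to Ighg1, was at 14.7 CPM in IgG cells and 102 CPM in IgM/IgD cells (−2.76). Tnfrsf13b, the receptor TACI, was the member that stood higher, at 101 against 39.0 CPM (1.38). It was at 149 CPM in the IgG cells of subcluster 4 but at 25.2 CPM in those of subcluster 5, below the 37.3 CPM of IgM/IgD cells outside both, with overlapping intervals (13.0 to 44.0 and 33.0 to 42.1). Marginal zone, B1 and memory genes were split, with 3 of 7 higher and 3 lower (median −0.47). Nt5e (3.46), Bhlhe41 (1.71) and Cd9 (1.17) were higher, and Pdcd1lg2 (−2.81), Fcrl5 (−2.70) and Dtx1 (−1.19) were lower. In the IgG cells of subcluster 5 alone, Cd9 was instead lower than in IgM/IgD cells outside both subclusters, with 1 UMI (0.0531 to 11.7 CPM) against 21.9 CPM (18.6 to 25.6). Bhlhe41 was at 10.5 against 17.4 CPM and Dtx1 at 94.4 against 92.5 CPM, with overlapping intervals for each.

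Among genes found in no less than 10% of cells of the group where they were higher, those with the largest ratio in IgG cells were Tnfrsf17, the agouti gene a, Slpi, Jchain and Derl3. The gene a had 52 UMIs against 0, at least 98.4-fold higher by the same limit of 3 counts, and Slpi, a secreted protease inhibitor, had a log2 ratio of 8.59. Those with the lowest ratio were Gm20696 (−5.61), Ms4a4c (−4.51), B3gnt5 (−4.40), Rasgef1b (−4.25) and Fam43a (−4.14).

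Within subcluster 5, where both isotype groups had germinal centre genes, the contrast was smaller. Fcer2a was at 35.7 CPM (20.8 to 57.1) in its IgG cells and 106 CPM (59.5 to 175) in its IgM/IgD cells, and Ccr7 at 67.2 and 135 CPM. IgM/IgD cells of the other subclusters had 203 CPM of Fcer2a and 701 CPM of Ccr7. Jchain was at 655 CPM in the IgG cells of subcluster 5, 199 CPM in its IgM/IgD cells and 5.57 CPM in IgM/IgD cells elsewhere.

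Members were also counted in cells outside the B lineage. There the 7 lymph node droplets with at least 100 member UMIs carried 83.0% of the 36455 member UMIs of the other named classes. Of these, 6 lay in the dendritic cell class, and each was led by a single switched isotype. They held 94 Ighg1, 1530 Ighg2b, 860 Ighg1, 2070 Igha, 976 Ighg1 and 1199 Ighg2c UMIs, with 17 to 856 Jchain UMIs. Dendritic cell markers with a UMI numbered 2, 0, 3, 4, 4 and 4 of 7 in them. Their median was 2 in the dendritic cell class and 0 in plasma cells. Plasma cell markers with a UMI numbered 2, 7, 5, 4, 6 and 7 of 8 in the same droplets, in the same order. Without such droplets the Igkc level of the dendritic cells was 165 CPM in place of 15242, and Igha was 4.29 CPM in place of 1590. Whether these droplets held a plasma cell with a dendritic cell was not tested.

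Cancer cells and endothelial cells of the node held Ighm and Ighd near the ratio of B cells. Ighm UMIs per Ighd UMI numbered 3.01 in B cells, 3.08 in the cancer cells and 3.57 in the endothelial cells of the node. Cells without UMIs of 4 B cell genes held 51 Ighm and 13 Ighd UMIs among the cancer cells, but 16 and 2 among the endothelial cells, too few to place the latter. Ighm per Cd79a UMI was 0.698, 0.594 and 0.636 in the same classes. Ighm was at 11.5 CPM in the cancer cells and 21.5 CPM in the endothelial cells, and the part of free RNA in these levels was not tested. Ighm was found in 18.2% of cancer cells at a median depth of 35079.5 UMIs, and in 1.17% after thinning, against 90.5% and 79.3% of B lineage cells.

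T cells and plasmacytoid dendritic cells of the node departed most clearly from that ratio. T cells held 25.6 Ighm UMIs per Ighd UMI and 6.36 per Cd79a UMI. The former was 15.5 with predicted doublets kept and 48.8 in T cells without UMIs of 4 B cell genes, above the 3.01 of B cells in each case. Plasmacytoid dendritic cells, which make type I interferon, held 111 and 33.3. NK cells (26 Ighm and 2 Ighd UMIs) and macrophages (17 and 1) also held more Ighm per Ighd than B cells, from few counts. In order of Ighm, B lineage cells (1987 CPM) stood above plasmacytoid dendritic cells (1286 CPM, 1151 to 1432), macrophages (539 CPM, from 17 UMIs in 22 cells), NK cells (131 CPM) and T cells (94.4 CPM, 89.2 to 99.9). Intervals of NK cells, T cells, dendritic cells, neutrophils, monocytes and endothelial cells overlapped with the neighbour in that order, and cancer cells (11.5 CPM) were lowest.

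**Figure D5:**
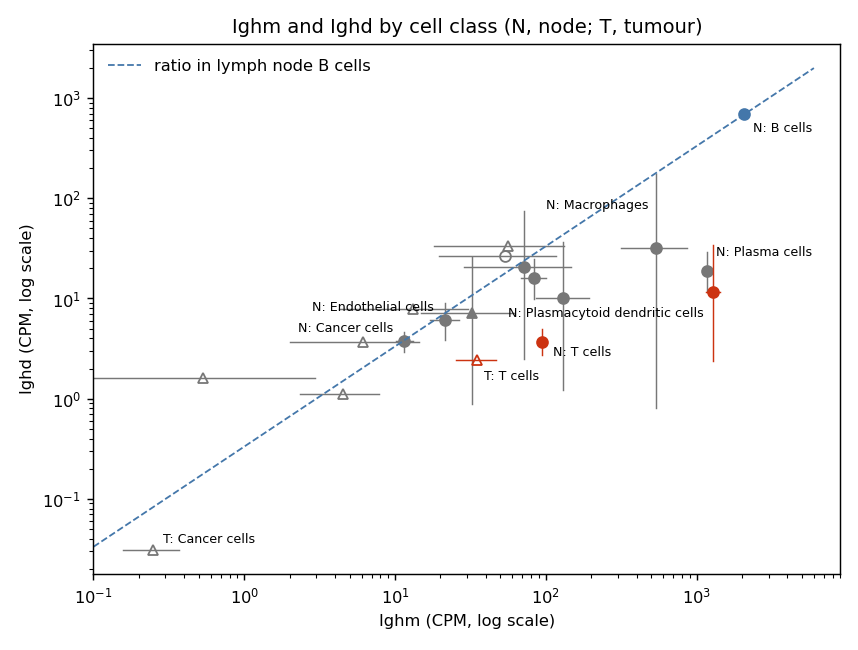
Ighm against Ighd in each class (CPM, both axes log, bars show 95% Poisson intervals, open symbols stand at the limit that 0 Ighd UMIs allow, circles for the node and triangles for the tumour), with the ratio of lymph node B cells as a dashed line. Cancer and endothelial cells of the node lie near the line, and T cells, plasma cells and plasmacytoid dendritic cells of the node lie to its right, with more Ighm per Ighd, as do NK cells and macrophages with wide intervals.

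In the 56 plasmacytoid dendritic cells Ighm was spread over nearly all cells. It was found in 53 of them, with 0 to 18 UMIs per cell, a median of 5.5 and 333 in all, and the top cell had 5.41% of these. Ighd had 3 UMIs, in 3 cells. After thinning, 69.3% of these cells had an Ighm UMI against 7.83% of T cells and 79.3% of B lineage cells. In the 49 cells without a UMI of Cd79a, Cd79b, Ms4a1 or Cd22, Ighm was at 1235 CPM (1094 to 1389).

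Light chain genes of the plasmacytoid dendritic cells were uneven. Igkc had 117 UMIs in 27 of 56 cells, up to 30 in 1 cell. Iglc1 had 0 UMIs, where a limit of 3 counts is 11.6 CPM, and Iglc2 had 13. Iglc3, which is not a member and is close to Iglc2 in sequence, had 84 UMIs in 33 cells, or 324 CPM against 197 CPM in B cells. The 5 such cells of the tumour held 10 Ighm UMIs and 0 of every other member.

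Ighm in T cells differed between their 4 largest clusters. It was at 174 CPM (157 to 192) in the cluster with the highest Foxp3 level (510 cells), at 218 CPM in a cluster of 140 cells, at 89.5 CPM in one of 1272 and at 63.7 CPM (57.6 to 70.4) in one of 1581. The intervals of the first pair lie above those of the other pair. In the cluster of 1272 cells, 67 of 288 Ighm UMIs came from the 1 T cell droplet with over 100 member UMIs. Leaving out T cells with any UMI of the 4 B cell genes left 3506 of 3693 cells and an Ighm level of 86.7 CPM, with 21 Ighd UMIs. The same step took the Ighm level of cancer cells from 11.5 to 3.26 CPM.

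The tumour library had few B lineage cells, 10 in all. In 1 of these cells, with 2014 UMIs, there were 284 Ighg2b, 304 Igkc and 66 Jchain UMIs. Another, with 4724 UMIs, held 42 Ighm UMIs, and the other 8 held 0 to 14. A single droplet classed with the macrophages held 141 Igha, 203 Igkc and 43 Jchain UMIs, and its members made up 62.5% of the 565 found outside the B lineage in this library. Macrophage Igha, at 52.9 CPM, was made up of that droplet's UMIs.

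Tumour T cells held 43 Ighm UMIs (34.8 CPM, 25.2 to 46.9), 0 Ighd UMIs and 0 Cd79a UMIs in 574 cells. The limit of 3 counts is 2.43 CPM here. In their cluster with Foxp3 at the higher level Ighm was at 94.5 CPM (48.8 to 165), against 26.0 CPM (17.3 to 37.6) in the largest cluster. Cancer cells of the tumour held Ighm at 0.247 CPM, from 24 UMIs in 6116 cells.

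The genes whose levels ran most like those of Ighm were sought over 19 class and library pairs of at least 20 cells, among 7760 genes outside the immunoglobulin loci. Pearson's r of log2(CPM + 10) was 0.88 for Blk, 0.88 for Fcrla, 0.86 for H2-Oa, 0.86 for Cd72 and 0.84 for Ly6d. For Igkc the nearest were Cd79a (0.88), H2-Ob (0.86), Jchain (0.85), Cd79b (0.85) and Fcer2a (0.81). The pairs share 2 libraries and the free RNA of each, so these values are descriptions.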

How the data were processed

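The authors deposited UMI counts as whole numbers without normalization, made from 10x Genomics 3′ libraries with Cell Ranger (2.1.1 in the submitters' processing notes, 5.0.0 in the file header) on GRCm38. No file names cell types. Cells were kept with more than 200 genes detected, no more than 6000, and up to 5% of UMIs from mitochondrial genes. Scrublet in scanpy 1.11.5 marked 391 tumour cells as doublets. It marked 0 lymph node cells, so the 616 above the 94th percentile of its score were removed. Of member UMIs, 16.2% in the tumour and 6.42% in the lymph node lay in cells not kept. Both libraries were clustered together (Leiden, igraph 0.11.9, resolution 1, 30 components, cell cycle regressed out) without the 390 immunoglobulin genes. The 39 clusters were named from markers, by a scoring rule set after the data were seen, and 33 received a name. The B lineage was subclustered with 20 components and a resolution of 0.5. Levels are CPM of summed UMIs. Log2 ratios add 0.5 count, for genes with at least 50 UMIs in 1 of the groups, and a count of 0 was given a limit of 3 counts. Named genes were the members, the 5 highest and 5 lowest by ratio with a UMI in 10% of the cells of the higher group, and the 5 nearest by correlation among genes with at least 500 lymph node UMIs. Isotype calls and intervals were tested on simulated data. Simulated cells had a single isotype, and switched ones held more of their chain than most of those of subcluster 5. Calls of switched cells at low counts were therefore not covered. The members and lists were chosen with earlier results of these data known. Promoters and proteins of the members were not used here, and 2 genes of the lists are not reported here.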

Additional observations from a re-analysis of the deposited data

Results flagged for a closer look

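Ighe, the constant gene of IgE, is not a member, and it had 31 UMIs in 1 lymph node B lineage cell. That cell held 11705 UMIs in all, with 1272 Ighg1 and 4752 Igkc UMIs, and was called Ighg1. A kept endothelial cell held 3 Ighe UMIs and a cell that was not kept held 1. Of the member UMIs of the lymph node library, 40454 of 630258 (6.42%) lay in cells that the filters did not keep.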

How the results depend on the processing

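Of 577 values recomputed for 65 results under 17 settings, 451 stayed near the main value and 126 moved. Near meant inside the counting interval of the main value, or within a set fold for counts of cells or genes. A turn of direction was looked for only in the log2 ratios of the genes named for the largest ratios, and 0 turned. Those ratios were far from 0, so this says little about the other values. The IgM/IgD share (76.0%) was 84.1% with a minimum of 2 UMIs, 52.8% with 5, 42.1% at 30 times the T cell level and 49.6% after thinning, and the IgG share (3.14%) was 2.34% after thinning. The lambda-only share (3.65%) was 2.78% with a minimum of 5 UMIs, 5.45% at 30 times, 3.12% after thinning and 4.71% by the dominant light chain. Ighm in B lineage cells (1987 CPM) was 1942 with each library clustered on its own, 2148 as a mean of single-cell CPM, 2093 with immunoglobulin UMIs out of the total and 1931 without the cell with most UMIs. Ighm in T cells (94.4 CPM) was 105 with doublets kept, 101 with each library clustered on its own and 86.7 in cells without UMIs of B cell genes. Ighm per Ighd in T cells (25.6) was 15.5 with doublets kept, 18.0 with separate clustering and 48.8 without B cell gene UMIs. Igkc in dendritic cells (15242 CPM) was 87.6 with doublets kept and 81.1 with separate clustering. The settings for cells without B cell gene UMIs and for the dominant light chain were chosen after seeing the data. So were those with Iglc3 added to lambda, with a background from cancer cells and without droplets of at least 100 member UMIs. The causes of the other moves were not tested. No paired analysis was possible because the tissues have 1 library each and share 1 replicate number. Counts per cell limit the calls: a median unswitched cell holds 6 heavy chain UMIs.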
